A study of Mus musculus with 3 samples.

Results

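The genes described here are the enzymes, transporters and regulators that take glucose through glycolysis to lactate, store it as glycogen, or divert it into the pentose phosphate pathway. They were taken by symbol from a list of 36 genes, and all 36 were found among the 16072 named genes of the expression table. The cells were bone marrow (BM) Ly6G+ myeloid cells of C57BL/6 mice, and the transcriptome was measured in 3 libraries. In the AAV-ctrl group there were 2 libraries, from mice that received an empty adeno-associated virus vector in muscle. In the AAV-IL27 group there was 1 library, from a mouse that received the same kind of vector carrying mouse IL-27 under the CAG promoter, which is active in most tissues and not confined to myeloid cells. All mice, controls included, carried B16.F10 melanoma injected subcutaneously, 1 week before they received the vector, so no tumour-free animal entered the comparison. Mice of this work were 6 to 10 weeks old, and BM cells were taken 3 weeks after the vector. The labels call the cells Ly6G+, and the study uses both Ly6G+ and Gr-1+ for them, of which Gr-1 is a marker that monocytes can share. The series text counts 4 mice but names those 3. The table has 1 further column of per-sample values that its header names as another AAV-IL27 replicate, which was not used because it matches no listed sample, so the single AAV-IL27 library is that of the listed sample only.

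Glycolysis splits glucose into pyruvate and yields ATP without oxygen, and lactate dehydrogenase and the lactate exporters keep it running by clearing its products. Neutrophils have few mitochondria and draw most of their ATP from this route, they carry glycogen as a reserve for sites without glucose, and they use NADPH from the oxidative pentose phosphate branch to feed the NADPH oxidase that makes superoxide. Several steps are served by isoforms from separate genes, of which hexokinase 3 and the liver form of glycogen phosphorylase are characteristic of myeloid cells. Values are FPKM, that is, fragments scaled by transcript length and by the number of mapped fragments, so levels of different genes in a library can be compared per length. Wherever 3 values follow each other they belong, in this order, to the libraries AAV-ctrl 1, AAV-ctrl 2 and AAV-IL27.

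The sample titles call the cells Ly6G+ myeloid cells, and the libraries held abundant neutrophil transcripts. All 14 neutrophil markers were present in each library, with S100a9, a calcium-binding protein, at 73508, 71786 and 68765 FPKM. None of the 14 markers lay 1 log2 unit or more outside the AAV-ctrl values. Short of that limit they went both ways. Ly6g was lower, at 711.76, 766.11 and 586.29 FPKM, and Elane was higher, at 17.95, 20.9 and 26.11 FPKM. Estimated depth was nearly equal, at 18900000, 19300000 and 19200000 fragments. With 1 AAV-IL27 library there is no replicate error for that group, so no test was run and no p-value is given. Each difference is log2(FPKM + 1) in AAV-IL27 minus the AAV-ctrl mean of the same quantity. This scale compresses the differences of low genes. The value set against it is AAV-ctrl 2 minus AAV-ctrl 1.

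The pathways as a whole were expressed at a nearly equal level in all 3 libraries. The 36 genes summed to 10731, 11092 and 10515 FPKM, which was 1.81%, 1.89% and 1.83% of all FPKM. In every library 17 of the 36 were above 100 FPKM and 7 were below 5 FPKM, and 16 ranked among the 500 most abundant genes by their AAV-ctrl mean. Gapdh, which oxidises glyceraldehyde 3-phosphate, was the most abundant of them at rank 24. It was followed by Pkm, the pyruvate kinase gene, at rank 47 and by the transaldolase gene Taldo1 at rank 60. At the other end lay Aldoc, an aldolase best known from brain, at rank 10440, and the muscle phosphofructokinase gene Pfkm at rank 9136.

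**Figure D1:**
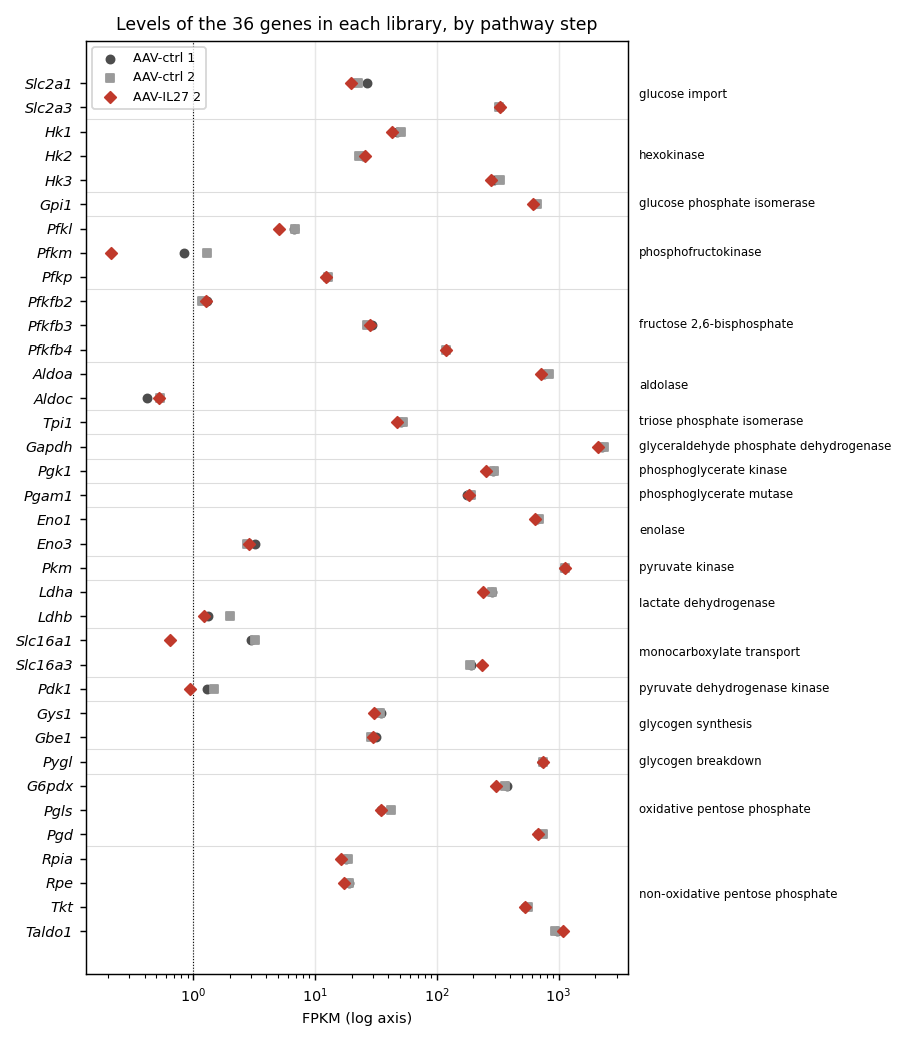
Levels of the 36 genes. The horizontal axis is FPKM on a log scale, rows are genes grouped by the pathway step named at the right, and symbols are the AAV-ctrl 1, AAV-ctrl 2 and AAV-IL27 libraries. Symbols of most genes lie on top of each other. Slc16a1 (3.01, 3.21 and 0.65 FPKM) and Pfkm (0.84, 1.31 and 0.21 FPKM) are the widest apart, and the dotted line marks 1 FPKM.

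Of the 36 genes, 34 had a mean of at least 1 FPKM and were counted against the 9130 genes that passed the same limit. Aldoc and Pfkm did not reach it. A gene was called lower or higher when AAV-IL27 lay 1 log2 unit or more beyond both AAV-ctrl libraries in that direction. By this rule 1 of the 34 was lower, Slc16a1, and 0 were higher, where 2.32% of all tested genes were lower and 0.307% were higher. With 0.5 log2 unit in place of 1 the counts were again 1 and 0, against 7.01% lower and 1.57% higher among all tested genes. The share of called genes in these pathways, 2.94% (1 gene), was thus near the background at the first threshold and below it at the second.

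The remaining genes differed little. The difference was under 0.2 log2 unit in size for 26 of the 34 (76.5%, against 64.7% of all tested genes) and under 0.5 for 33 of the 34 (97.1%, against 89.2%). The median difference was -0.10 for the 34 genes and -0.01 for all tested genes, and the AAV-ctrl libraries differed from each other by a median of 0.03 in the same 34. In AAV-IL27, 22 of the 34 lay below both AAV-ctrl values (background 41.9%), 3 above both (background 38.9%) and 9 between them (background 19.2%). Rescaling the libraries by median ratio, which divides all FPKM of a library by 1 factor, changed both the members' counts and the background. Then 17 of the 34 lay below and 9 above, beside 33.4% and 49.98% of all tested genes, so the members still lay below more often and above less often than the background, as described without a test.

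**Figure D2:**
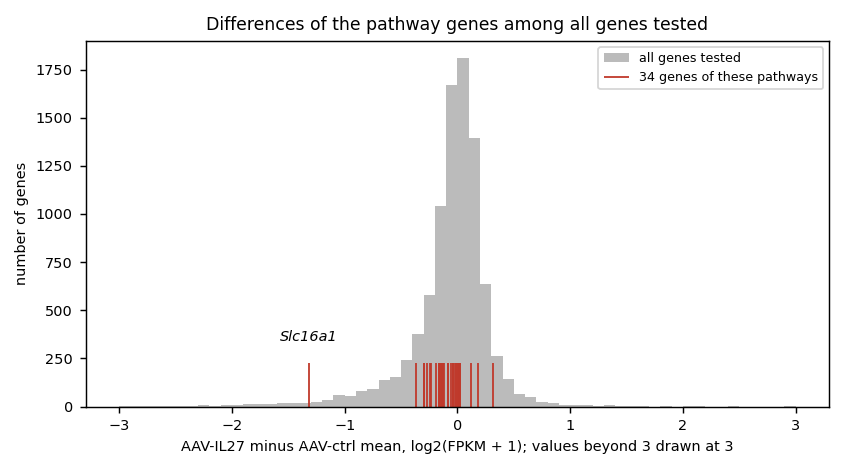
Differences of the pathway genes among all genes tested. The horizontal axis is log2(FPKM + 1) of AAV-IL27 minus the AAV-ctrl mean, the grey bars count the 9130 genes tested, and each red line is 1 of the 34 pathway genes. The red lines lie between -0.36 and 0.32 apart from Slc16a1 at -1.32.

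The monocarboxylate transporters differed in opposite directions, Slc16a1 past the threshold and Slc16a3 short of it. Slc16a1 encodes MCT1, a transporter of lactate, pyruvate and ketone bodies with high affinity that many cells use for import, and Slc16a3 encodes MCT4, the low-affinity exporter of strongly glycolytic cells. The 250 bases that precede a RefSeq transcription start of each gene are shown because these were the members with the largest difference in either direction, and that of Ldha, which makes the lactate they carry, is shown for comparison. Capitals mark ACGTG or GCGTG on either strand, the core of the hypoxia response element to which HIF-1 binds. The sequences are from RefSeq on GRCm38.p6 (the labels name mm10, the same assembly), read 5′ to 3′ on the plus strand, at chr3:104638414-104638663 for Slc16a1, chr11:120948817-120949066 for Slc16a3 and chr7:46845554-46845803 for Ldha.
Slc16a1: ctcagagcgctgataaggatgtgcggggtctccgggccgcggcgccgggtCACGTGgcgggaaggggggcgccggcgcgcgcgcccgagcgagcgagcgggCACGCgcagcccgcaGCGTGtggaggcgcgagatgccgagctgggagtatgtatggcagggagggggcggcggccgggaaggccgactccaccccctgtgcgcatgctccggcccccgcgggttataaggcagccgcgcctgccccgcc
Slc16a3: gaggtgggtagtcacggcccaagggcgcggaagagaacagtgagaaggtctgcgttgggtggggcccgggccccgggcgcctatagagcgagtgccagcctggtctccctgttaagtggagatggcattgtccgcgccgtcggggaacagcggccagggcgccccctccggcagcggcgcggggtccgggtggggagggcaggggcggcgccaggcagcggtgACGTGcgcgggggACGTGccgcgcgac
Ldha: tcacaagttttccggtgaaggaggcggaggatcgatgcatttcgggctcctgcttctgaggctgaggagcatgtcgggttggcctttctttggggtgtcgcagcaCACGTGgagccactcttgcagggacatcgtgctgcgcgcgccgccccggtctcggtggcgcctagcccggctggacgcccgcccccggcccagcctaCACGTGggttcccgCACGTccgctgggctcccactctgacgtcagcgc

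The Slc16a1 window held 4 matches, the Slc16a3 window 2 and the Ldha window shown 5. The annotated Slc16a3 gene begins at 120948484, so its window lies inside the gene span, and the bases before that outer position were not scanned. Ldha has a further RefSeq start downstream, whose window held 1 match and no CACGTG and is not shown. The annotated Ldha gene begins at 46842274, upstream of both of its windows, and the bases before that position were not scanned. The palindrome CACGTG, the E-box that Myc and its relatives bind, contains ACGTG on both strands and so counts as a pair of matches, and it was present in the Slc16a1 and Ldha windows printed here. Across the genes of these pathways, 35 had a promoter entry, with 51 windows of the same 250 bases before a start, of which 40 (78.4%) held ACGTG or GCGTG. The share was 38.6% of all 32851 windows and 44.0% of the 21262 windows of protein-coding genes. CACGTG was found in 5 of the 51 windows (9.8%), against 6.02% of all windows and 6.63% of those of protein-coding genes. Windows of 1 gene can overlap, and G and C made up a median of 59.6% of the bases in the 51 windows and 55.6% in those of protein-coding genes. A match in these letters is not a measurement of binding.

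Slc16a1 (NCBI Gene 20501, chromosome 3 from 104638664 to 104658462) was at 3.01 FPKM in AAV-ctrl 1, 3.21 in AAV-ctrl 2 and 0.65 in AAV-IL27. The AAV-ctrl libraries were close together, and the AAV-IL27 library was well below both of them, at 20.9% of their mean (3.11 ± 0.141, SD, n = 2). The log2 difference was -1.32, against 0.07 between the AAV-ctrl libraries. These FPKM correspond to an estimated 248, 270 and 54 fragments, with 95% Poisson intervals of 218 to 281, 239 to 304 and 40.6 to 70.5, which cover counting error only. The AAV-IL27 interval did not reach those of the AAV-ctrl libraries.

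Slc16a3 (NCBI Gene 80879, chromosome 11 from 120948484 to 120959000) was at 189.49, 188.44 and 235.93 FPKM. The AAV-ctrl values were nearly equal and AAV-IL27 was above both. It was the highest of the 34 differences, at 0.32 log2 unit, where the AAV-ctrl libraries differed by -0.01, but it did not reach the 0.5 threshold. MCT4 made up nearly all of the transporter signal, with Slc16a3 at 98.4% and 98.3% of the summed FPKM of both genes in AAV-ctrl and 99.7% in AAV-IL27. The ratio of Slc16a3 to Slc16a1 was 63.0 and 58.7 in the AAV-ctrl libraries and 363 in AAV-IL27. Because that ratio is taken within a library, it does not depend on the scaling between libraries.

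Transcripts of other BM cells were also lower in the AAV-IL27 library, and their part in the Slc16a1 difference was not tested. Fewer cells of a type and less RNA per cell cannot be told apart in bulk samples. Erythroid markers summed to 20601, 13939 and 2366 FPKM, with 14 of 14 called lower (background 2.32% of all tested genes). Macrophage markers summed to 1061, 1031 and 427 FPKM, with 10 of 13 called lower. B cell markers summed to 28.5, 38.0 and 5.04 FPKM (4 of 4 tested called lower) and megakaryocyte markers to 77.2, 86.4 and 32.5 FPKM (3 of 6). Cell cycle genes summed to 127, 146 and 58.1 FPKM, with 8 of 13 called lower. Monocyte markers went both ways. Their sum of 1117, 1179 and 1241 FPKM was mostly Ly6c2 (1023, 1086 and 1145 FPKM), and 0 of 7 were called at 1 log2 unit. At 0.5, Irf8 was lower (7.49, 7.89 and 4.66 FPKM) and Fn1 was higher (1.71, 2.01 and 4.37 FPKM), and the median difference of the 7 was 0.46. The T and NK cell markers summed to 10.9, 11.98 and 11.8 FPKM, with 0 of 2 tested called. No marker in the table was listed at 0 in the AAV-IL27 library.

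**Figure D3:**
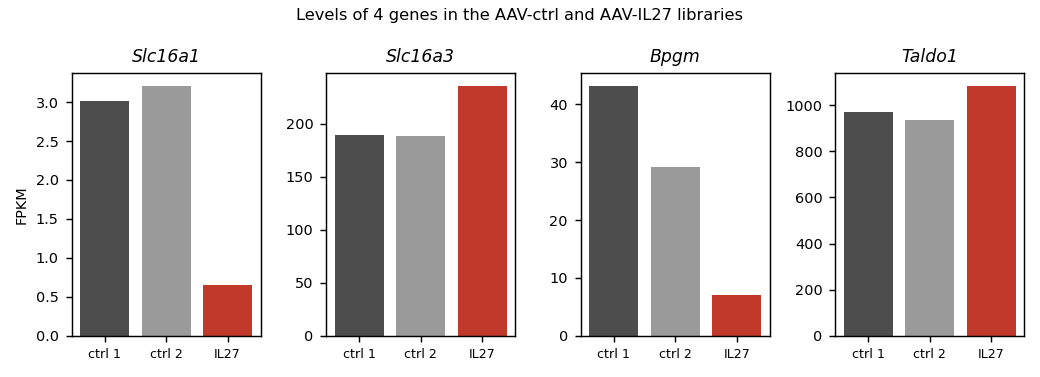
Levels of 4 genes. Each panel gives FPKM from 0 for 1 gene, with 1 bar per library and no error bars, since each bar is a single library. Slc16a1 (3.01, 3.21 and 0.65 FPKM) and Bpgm (43.24, 29.14 and 7.1 FPKM) are lowest in AAV-IL27, and Slc16a3 (189.49, 188.44 and 235.93 FPKM) and Taldo1 (972.46, 934.14 and 1084.85 FPKM) are highest there.

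By transcript level GLUT3 was the leading glucose transporter. Slc2a3, which encodes this high-affinity transporter, was at 332.24, 324.48 and 330.8 FPKM, and the AAV-IL27 value lay between the others. Slc2a1, which encodes the widespread transporter GLUT1, was at 26.64, 22.42 and 19.77 FPKM, a log2 difference of -0.29. The AAV-ctrl libraries themselves differed by -0.24 for Slc2a1. Slc2a3 held 92.6% and 93.5% of the summed FPKM of these genes in AAV-ctrl and 94.4% in AAV-IL27. That share leaves out Slc2a6, a gene of the same family that is not a member. It was more abundant than Slc2a1, at 89.99, 83.88 and 98.23 FPKM, and was singled out after its values were seen.

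Among the hexokinases, which phosphorylate glucose and so trap it in the cell, the order was Hk3, Hk1 and Hk2 in every library. Hk3, the myeloid isoform, was at 296.2, 331.08 and 278.72 FPKM and held 80.6%, 81.8% and 80.1% of the hexokinase FPKM. Its difference of -0.17 was about as large as the difference of 0.16 between the AAV-ctrl libraries. Hk1, the housekeeping isoform, was at 46.82, 50.63 and 43.24 FPKM, also a difference of -0.17. Hk2, the isoform of muscle and of many tumours, was at 24.6, 22.89 and 25.88 FPKM and was 1 of the 3 members above both AAV-ctrl values, with a difference of 0.12 against -0.10 between the AAV-ctrl libraries. Adpgk, a glucokinase that uses ADP and is not a member, was more abundant than the hexokinases together, at 748.27, 723.64 and 836.44 FPKM, and was singled out after its values were seen.

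Levels along upper glycolysis were uneven, with phosphofructokinase the lowest step. Gpi1, the isomerase that follows the hexokinases in glycolysis, was at 633.17, 670.26 and 615.8 FPKM. The phosphofructokinase genes, whose product catalyses the committed step of glycolysis, reached 12.67, 12.88 and 12.41 FPKM for the platelet isoform Pfkp and 6.75, 6.85 and 5.06 FPKM for the liver isoform Pfkl. The difference of Pfkp was -0.04. Pfkl had the lowest difference after Slc16a1 among the 34, at -0.36 against 0.02 between the AAV-ctrl libraries. Its estimated fragments were 467, 484 and 356, with intervals of 426 to 511, 442 to 529 and 320 to 395.

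The muscle isoform Pfkm was at 0.84, 1.31 and 0.21 FPKM, at 19.5% of its AAV-ctrl mean. It was not counted, since its mean was under 1 FPKM, and the AAV-ctrl libraries differed by 0.33 log2 unit. Its log2 difference was -0.77. Within the step, the share of Pfkp was 62.5% and 61.2% in AAV-ctrl and 70.2% in AAV-IL27, that of Pfkl 33.3%, 32.6% and 28.6%, and that of Pfkm 4.15%, 6.23% and 1.19%. The Pfkp share was 8.32 points above its AAV-ctrl mean, the largest difference of any isoform share computed here, against an SD of 0.934 points between the AAV-ctrl libraries. The values of Pfkl and Pfkm were lower there, while those of Pfkp were nearly equal in the 3 libraries.

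The PFKFB enzymes set the level of fructose 2,6-bisphosphate, the activator of phosphofructokinase. Transcripts of Pfkfb4 and Pfkfb3, but not of Pfkfb2, were more abundant than those of Pfkp and Pfkl in every library. Pfkfb4 was at 120.21, 119.99 and 119.76 FPKM, the smallest difference of the 36 genes. Pfkfb3, the isoform with the highest kinase activity, was at 29.43, 26.52 and 28.31 FPKM, and Pfkfb2 was at 1.31, 1.19 and 1.28 FPKM. All of these differences were within 0.02 log2 unit. Pfkfb4 held 79.6%, 81.2% and 80.2% of their summed FPKM.

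Aldolase and triose phosphate isomerase complete the split of the sugar into triose phosphates. Aldoa was at 758.54, 827.73 and 722.48 FPKM, with a difference of -0.13, about the same size as the 0.13 between the AAV-ctrl libraries. Aldoc was at 0.42, 0.53 and 0.52 FPKM. Tpi1 was far below its neighbours in the pathway, at 51.1, 52.37 and 46.92 FPKM, and Gapdh exceeded it by a ratio of 44.1, 44.7 and 45.2. Summed over the 10 genes of upper glycolysis, the FPKM were 1831, 1977 and 1751, and the AAV-IL27 sum was 92.0% of the AAV-ctrl mean.

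**Figure D4:**
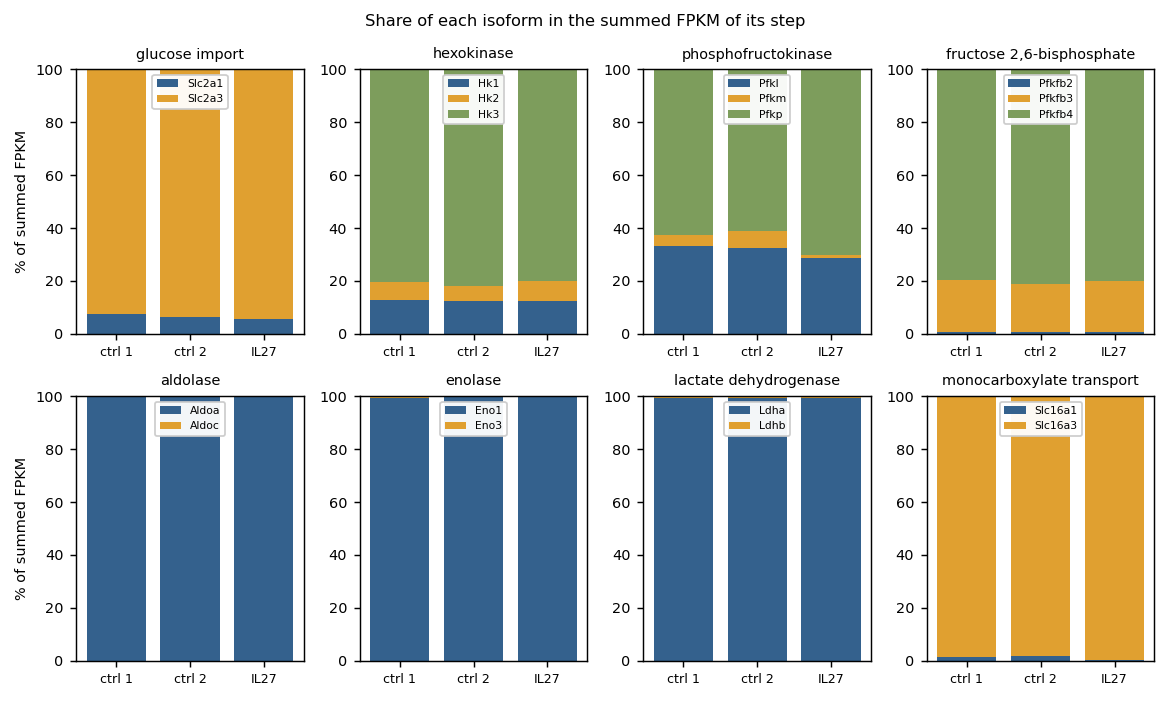
Share of each isoform in the summed FPKM of its step. Each panel is 1 step with 3 bars for AAV-ctrl 1, AAV-ctrl 2 and AAV-IL27, and the vertical axis is the percentage of the summed FPKM. The same isoform leads each step in every library, and the Pfkp share is 62.5%, 61.2% and 70.2%.

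Lower glycolysis, which recovers ATP from the trioses, held the most abundant transcripts of these pathways. Gapdh was at 2253, 2343 and 2119 FPKM, and its difference of -0.12 exceeded the 0.06 between the AAV-ctrl libraries. Pgk1, the first ATP-forming enzyme of the pathway, was at 287.39, 297.21 and 255.92 FPKM, a difference of -0.19 against 0.05. Pgam1, the mutase that follows it, was at 177.21, 192.49 and 182.24 FPKM and lay between the AAV-ctrl values. Eno1, the widespread enolase, was at 660.63, 687.94 and 634.86 FPKM, and the muscle enolase Eno3 was at 3.25, 2.79 and 2.85 FPKM. Pkm was at 1107, 1128 and 1125 FPKM, a difference of 0.01. The 6 genes of lower glycolysis summed to 4488, 4652 and 4320 FPKM, 94.5% of the AAV-ctrl mean in AAV-IL27.

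Several of these genes have near-identical copies elsewhere in the genome, to which the authors' counting may have assigned some fragments. Transcripts of 90 other GENCODE genes, nearly all of them processed pseudogenes, matched Gapdh at 95% identity or more over at least 50% of its length. There were 5 such copies for Ldha, 4 for Eno1 and 2 for Pgk1, and 28 of the 36 genes had none, Slc16a1 and Slc16a3 among them. Where such a copy was in the expression table its value was low, as with Eno1b at 0.53, 0 and 0.18 FPKM.

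At the end of the pathway, Ldha, which reduces pyruvate to lactate, was at 284.42, 281.73 and 239.93 FPKM. The AAV-ctrl libraries differed by -0.01 and the AAV-IL27 library was lower by -0.24, below both. Ldhb, the isoform that favours the reverse reaction in oxidative tissues, was at 1.33, 2 and 1.23 FPKM, where the AAV-ctrl libraries differed by 0.36. Ldha was 99.5%, 99.3% and 99.5% of their summed FPKM. Pdk1, a kinase that inhibits the pyruvate dehydrogenase complex, was at 1.3, 1.48 and 0.94 FPKM, a difference of -0.30. Its estimated fragments of 126, 146 and 92 had intervals of 105 to 150, 123 to 172 and 74.2 to 113, so that of AAV-IL27 overlapped the interval of AAV-ctrl 1. The summed FPKM of Ldha, Ldhb, both transporters and Pdk1 was 479.6, 476.9 and 478.7, since the lower Ldha value was offset by the higher Slc16a3 value.

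The glycogen genes were nearly level between groups. Pygl, the phosphorylase that releases glucose units from glycogen, was at 729.05, 743.13 and 742.01 FPKM. Gys1, the glycogen synthase of tissues other than liver, was at 34.8, 34.07 and 30.74 FPKM, a difference of -0.16 against -0.03 between the AAV-ctrl libraries. Gbe1, which adds the branches, was at 31.52, 28.58 and 29.77 FPKM. Pygl exceeded Gys1 by a ratio of 20.9 and 21.8 in AAV-ctrl and 24.1 in AAV-IL27. The 3 genes summed to 795, 806 and 803 FPKM, which left AAV-IL27 at 100.2% of the AAV-ctrl mean.

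Pentose phosphate genes were as abundant as many of the glycolytic ones, and the sums of the branches leaned in opposite directions. In the oxidative branch, which makes NADPH, G6pdx encodes the first and rate-limiting enzyme and was at 378.7, 359.89 and 306.47 FPKM. Both AAV-ctrl values were above that of AAV-IL27, and the difference was -0.27 against -0.07 between them. Pgd, the enzyme of the other NADPH-forming step, was at 676.44, 751.29 and 674.37 FPKM, and Pgls, the lactonase between them, was at 34.94, 42.08 and 34.91 FPKM. For both, AAV-IL27 was almost equal to AAV-ctrl 1. The oxidative branch summed to 1090, 1153 and 1016 FPKM, so that AAV-IL27 was at 90.6% of the AAV-ctrl mean (1122 ± 44.7, SD, n = 2).

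In the non-oxidative branch, which interconverts sugars and returns them to glycolysis, Taldo1 (NCBI Gene 21351, chromosome 7 from 141392160 to 141402976) was at 972.46, 934.14 and 1085 FPKM. It was above both AAV-ctrl values, with a difference of 0.19 against -0.06. Tkt, the transketolase gene, was at 527.49, 561.48 and 528.51 FPKM, within the AAV-ctrl range. The isomerase Rpia and the epimerase Rpe, which act on ribulose 5-phosphate, were at 17.96, 18.66 and 16.45 FPKM and at 19.2, 19.16 and 17.46 FPKM. The branch summed to 1537, 1533 and 1647 FPKM, 107.3% of the AAV-ctrl mean (1535 ± 2.60, SD, n = 2), and Taldo1 alone among its genes was above both AAV-ctrl values. The log2 ratio of the sums was -0.14 for the oxidative and 0.10 for the non-oxidative branch. After median-ratio rescaling these were -0.08 and 0.16, with the signs kept.

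**Figure D5:**
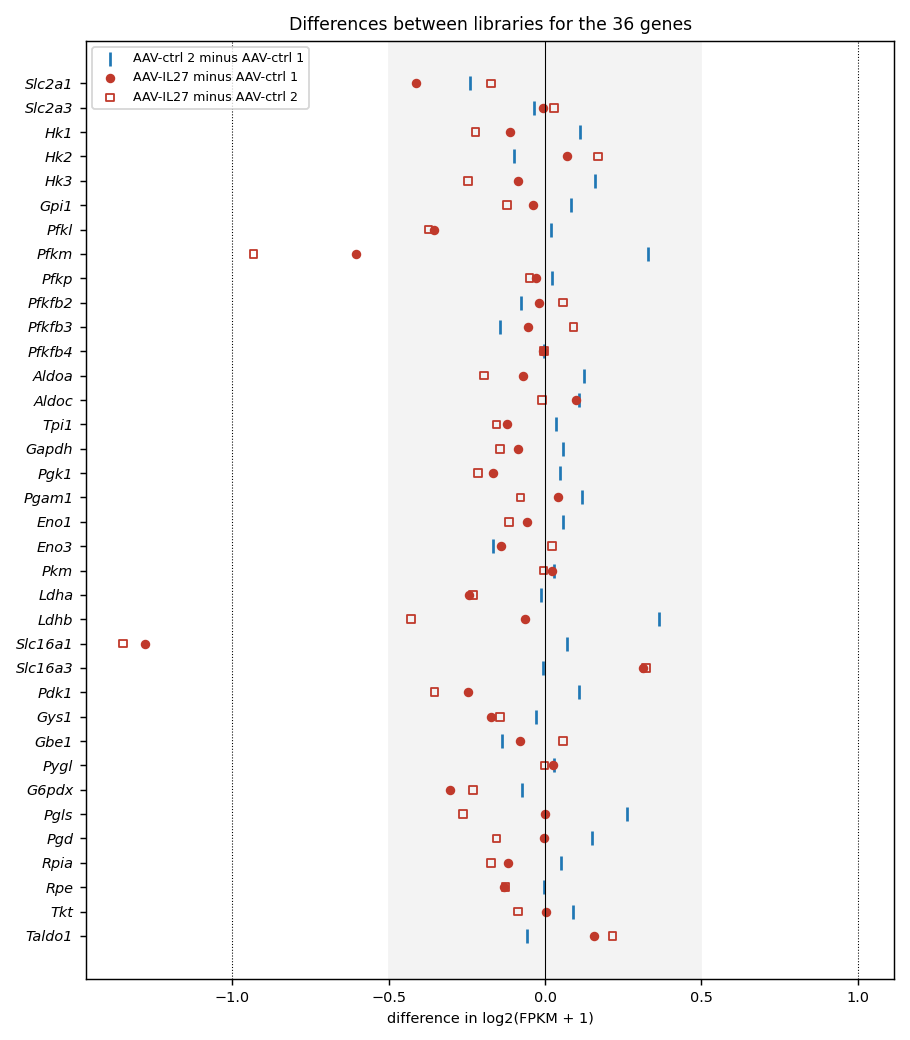
Differences between libraries for the 36 genes. The horizontal axis is the difference in log2(FPKM + 1), red circles and open squares are AAV-IL27 minus AAV-ctrl 1 and minus AAV-ctrl 2, and blue ticks are AAV-ctrl 2 minus AAV-ctrl 1. The grey band spans 0.5 log2 unit on either side of 0 and the dotted lines mark 1. Only Slc16a1 (-1.32 from the mean) is past the dotted line with both symbols, and Pfkm, which was not counted, is outside the band.

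Other genes of the same pathways were taken from lists drawn up by function. Of 33 further genes of glycolysis and gluconeogenesis, 24 were in the table and 11 were tested, of which 1 was called lower and 0 higher (background 2.32% and 0.307%). It was Bpgm, which makes the 2,3-bisphosphoglycerate that lowers the oxygen affinity of haemoglobin in red cells. Bpgm was at 43.24, 29.14 and 7.1 FPKM, a log2 difference of -2.17. The AAV-ctrl libraries were themselves apart for it, by -0.55, in the order also seen for haemoglobin (3.40%, 2.32% and 0.405% of all FPKM). Pklr, the pyruvate kinase gene of red cells and liver, was at 1.04, 1.62 and 0.14 FPKM and, with a mean under 1, was not counted.

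Of 15 further glycogen genes tested, 0 were called in either direction at 1 log2 unit. At 0.5, the brain phosphorylase gene Pygb was lower (2.57, 2.92 and 1.38 FPKM). Of 4 further pentose phosphate genes tested, 0 were called at 1, and at 0.5 both Prps1 (1.71, 1.66 and 0.62 FPKM) and Prps2 (1.41, 1.3 and 0.61 FPKM) were lower. These encode the synthetases that turn ribose 5-phosphate into the precursor of nucleotides. G6pc3, the glucose 6-phosphatase whose loss causes neutropenia, was also lower at 0.5, at 3.2, 2.81 and 1.45 FPKM, a difference of -0.71. These genes were named after their values were seen. Of all tested genes, 7.01% were lower at this threshold, and 2.32% were lower and 0.307% higher at 1.

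Genes that carry pyruvate into mitochondrial metabolism and the regulators of glycolytic genes showed no calls. Among all tested genes 2.32% were lower and 0.307% higher at 1, and 7.01% and 1.57% at 0.5. Lists this short would thus hold few calls or none at the background share. Of 10 tested genes for pyruvate carriage, the pyruvate dehydrogenase complex and its kinases, 0 were called at 1 or at 0.5, with a median difference of -0.07. Of 11 tested regulators, 0 were called at either threshold. Among them, Hif1a, the oxygen-sensitive subunit of HIF-1, was at 20.28, 17.76 and 19.72 FPKM, and Myc, a driver of glycolytic genes in growing cells, was at 2.19, 1.73 and 1.07 FPKM. Of 12 tested hypoxia-inducible genes outside glycolysis, 0 were called at 1, with a median difference of 0.21 against -0.15 between the AAV-ctrl libraries. In this list, P4ha1, a subunit of the enzyme that hydroxylates collagen, was lower at 0.5 (2.89, 2.77 and 1.22 FPKM).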

How the data were processed

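Groups were taken from the sample titles. Per the labels, mRNA was selected with oligo-dT, strand-marked with dUTP and sequenced on the DNBSEQ platform, and the build was mm10. The authors deposited FPKM values to 2 decimals; the aligner and counter are not given in the sources used here. The row without a symbol and 1 further per-sample column, by its header an AAV-IL27 replicate that matches no listed sample, were left out. From these FPKM values, log2(FPKM + 1) differences were computed, and calls were counted over genes with a mean of at least 1 FPKM. No count test was run, since the table holds no counts. Depth was estimated from the spacing of low FPKM in single-transcript genes (10748 genes, 70 nt subtracted from each length), for which 78.1% to 79.8% of low values lay within 0.15 of a whole fragment. The depth estimate and the call rule were tested on simulated data. These used the same 70 nt and held counting error only, so they say nothing about spread between mice. Near-identical transcripts were found with BLAST 2.17.0 in GENCODE M21. Python 3.11.15, numpy 2.4.6, pandas 2.3.3 and scipy 1.17.1 were used.

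The members, lists and rules were chosen with earlier results of these data known. Genes given with values in every library were those called, the most abundant gene of each step, and the 5 lowest and 5 highest by difference from the nearer AAV-ctrl library; in the other pathway lists, those called at 1 log2 unit. Adpgk, Slc2a6, Pklr, Pygb, Prps1, Prps2, G6pc3, Hif1a, Myc and P4ha1 fall outside this rule and were chosen after their values were seen. So were the neutrophil and monocyte markers named. Remaining members are given by their values. Alternatives were a pseudocount of 0.1, other limits on low values, 3 rescalings of the libraries, and leaving out either AAV-ctrl library. A planned comparison of protein sequences was not made here.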

Additional observations from a re-analysis of the deposited data

How the results depend on the processing

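No paired analysis was possible because AAV-ctrl and AAV-IL27 have 1 replicate number in common, and nothing in the labels ties that number to a shared litter, batch or day. With 1 AAV-IL27 library used, the spread between AAV-IL27 mice was not measured, and that group could not be left out in turn. The call of Slc16a1 was kept under each alternative that retained the gene. Its difference was -2.10 with a pseudocount of 0.1, -1.28 after median-ratio rescaling, and from -1.35 to -1.28 without either AAV-ctrl library. A smaller pseudocount, no limit on low values or leaving out an AAV-ctrl library cannot remove such a call. Only a rescaling could remove it, and the 3 used here were too small to do so. The median of all tested genes shifted by 0.037 with equal totals and 0.053 with median ratios. With equal totals without haemoglobin it shifted by 0.0044. Slc16a1 lay -1.28 log2 unit from the nearer AAV-ctrl library, against a threshold of 1. That the call was kept is thus no check on it. With a limit of 5 FPKM on the mean, Slc16a1 was no longer counted and 0 members were called lower at 1 or at 0.5. Without a limit on low values, Pfkm was added and 2 members were lower at 0.5. The count above both AAV-ctrl values was 3 and became 8 with equal FPKM totals, 9 with median ratios, 6 with equal totals without haemoglobin, and 7 to 8 without either AAV-ctrl library, where a gene has to exceed 1 library only. The median difference of the members was -0.042 with median ratios, a rescaling that shifted the median of all tested genes by 0.05.

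Median-ratio rescaling moved 7 of the 8 branch sums by more than 1 SD of the AAV-ctrl values. Their log2 ratios became 0.059 for fructose 2,6-bisphosphate, 0.049 for glucose import, 0.063 for glycogen, 0.060 for lactate and pyruvate, -0.022 for lower glycolysis, 0.16 for the non-oxidative and -0.084 for the oxidative pentose phosphate branch. With 2 AAV-ctrl libraries, leaving out either one moves a mean by less than 1 SD by construction, so those values say nothing about the stability of the branch sums and isoform shares. The difference changed sign in 5 of the 36 genes with median ratios, each of them at most 0.042 in size before rescaling.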
